A study of Mus musculus with 160 samples.

Results

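Antigen presentation by MHC class I was followed through 10 genes: the heavy chains H2-K1 and H2-D1, the light chain B2m, the peptide transporter subunits Tap1 and Tap2, the loading chaperone Tapbp (tapasin), the immunoproteasome subunits Psmb8, Psmb9 and Psmb10, and the transcriptional regulator Nlrc5. They were chosen by name for this pathway, from the 39179 Ensembl genes counted in each of 160 RNA-seq libraries of mouse distal colon. The mice came from 4 knockout lines, each with wild-type littermates and each taken through a colitis experiment with dextran sulfate sodium (DSS), a chemical that injures the colon epithelium when given in the drinking water. The Nckap1l line, labelled HEM1, had 16 knockout and 15 wild-type mice on C57BL6/J, of which 4 and 8 were female, with 5 days of DSS at a strength that the study's methods set below that of the other lines, 7 days of water and tissue taken on day 12. The Dock2 line had 18 knockout and 24 wild-type mice on C57BL6/J, of which 8 and 12 were female. The Gpsm3 line had 20 and 20 labelled male mice on C57BL6/J, and the Dok3 line 26 and 21 labelled male mice on strain 129. These 3 lines had 5 days of DSS (3% for Dock2 and Gpsm3, 3.5% for Dok3), 5 days of water and tissue on day 10. For the Dok3 mice the study's methods also name an earlier round at 3%. The mice were 8 to 10 weeks old by the study's methods, and the labels do not say which mouse of a line received DSS and which received plain water, so animals with and without DSS could not be separated within a group. The knockouts were existing mutant lines, none of them described as limited to one cell type.

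MHC class I molecules carry peptides from inside the cell to its surface, where CD8 T cells read them. The proteasome cuts proteins into peptides, and in cells exposed to interferon gamma its catalytic subunits are replaced by Psmb8, Psmb9 and Psmb10. TAP, made of Tap1 and Tap2, moves the peptides into the endoplasmic reticulum, tapasin helps to load them, and the heavy chain then leaves for the surface together with B2m. Nlrc5 is the transactivator of class I genes, and, like the other genes of the pathway, is known to be raised by interferon gamma. In the colon nearly every cell makes class I molecules, leukocytes more than resting epithelium, so in whole tissue a change in the number of cells of one type and a change in RNA per cell cannot be told apart.

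The libraries held 4344988 to 19993833 counted reads. Transcripts of the targeted gene, which a null allele need not remove, had a median of 14.8 CPM (counts scaled to library size) in Nckap1l-/- against 27.2 in wild-type mice, 22.2 against 34.2 for Dock2, 0.575 against 3.21 for Gpsm3 and 3.18 against 3.64 for Dok3. Only the difference in Gpsm3 passed the test over all genes (edgeR's quasi-likelihood test, Benjamini-Hochberg adjusted p = 0.0001). In the Gpsm3 line 3 libraries went against their label: the libraries labelled knockout 1 and knockout 11 held 2.74 and 3.55 CPM of Gpsm3 and the library labelled wild type 11 held 0.73. In the Dok3 line 5 libraries labelled male had the Xist and Ddx3y counts of females. The median knockout effect in these lines is given with and without those libraries, and other values include them unless stated.

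Of the 10 genes, 7 lie on chromosome 17 within 1 Mb of Gpsm3 itself, which stands at 34589806 to 34591754 on the plus strand (GRCm38, GENCODE vM21). From the centromere, Tapbp (ENSMUSG00000024308) spans 33915899 to 33929292 on the plus strand, H2-K1 (ENSMUSG00000061232) 33996017 to 34000347 on the minus strand, Psmb9 (ENSMUSG00000096727) 34181987 to 34187764 on the minus strand, Tap1 (ENSMUSG00000037321) 34187553 to 34197225, Psmb8 (ENSMUSG00000024338) 34197721 to 34201454, Tap2 (ENSMUSG00000024339) 34203527 to 34216321 and H2-D1 (ENSMUSG00000073411) 35262730 to 35267499, the last 4 on the plus strand. B2m (ENSMUSG00000060802) lies on chromosome 2 at 122147686 to 122153083, and Psmb10 (ENSMUSG00000031897) and Nlrc5 (ENSMUSG00000074151) on chromosome 8 at 105935735 to 105938444 and 94434356 to 94527272. Tap1 and Psmb9 overlap head to head by 212 bases, and B2m lies wholly inside Patl2 on the other strand. Reads of 100 bases can be shared between class I heavy chains: 3.59% of the windows of that length in H2-D1 transcripts, most often with H2-Q1, and 0.96% of those in H2-K1, most often with H2-Q10, also occurred in another gene, against at most 0.08% for each other member.

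The promoters of 8 of the 10 genes were in the RefSeq table used here (GRCm38.p6), and the stretches of 250 bases before the start are printed for the heavy chains, which share most of their letters, for B2m, for Tap1, whose stretch also holds the start of Psmb9 on the other strand, and for Psmb8. Capitals mark matches to GGGATTCCC (a kappaB-type site), GAAANNGAA or GAANNGAAA (cores of the interferon-stimulated response element), TTCNNNGAA (the gamma-activated site) and ATTGG (the inverted CCAAT box), on either strand. GGGATTCCC and GAANNGAAA were added after these sequences had been read.
H2-K1, chr17:34000348-34000597, minus strand: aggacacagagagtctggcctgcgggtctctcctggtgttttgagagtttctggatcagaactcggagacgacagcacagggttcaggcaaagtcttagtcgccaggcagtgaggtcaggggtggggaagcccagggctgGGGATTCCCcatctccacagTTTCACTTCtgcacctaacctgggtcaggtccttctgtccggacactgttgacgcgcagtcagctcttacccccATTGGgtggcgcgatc
H2-D1, chr17:35262844-35263093, plus strand: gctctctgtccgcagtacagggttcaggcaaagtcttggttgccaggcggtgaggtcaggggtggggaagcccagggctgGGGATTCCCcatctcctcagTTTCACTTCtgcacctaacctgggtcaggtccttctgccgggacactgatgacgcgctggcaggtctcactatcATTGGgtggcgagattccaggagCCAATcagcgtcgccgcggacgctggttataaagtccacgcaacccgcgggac
B2m, chr2:122147437-122147686, plus strand: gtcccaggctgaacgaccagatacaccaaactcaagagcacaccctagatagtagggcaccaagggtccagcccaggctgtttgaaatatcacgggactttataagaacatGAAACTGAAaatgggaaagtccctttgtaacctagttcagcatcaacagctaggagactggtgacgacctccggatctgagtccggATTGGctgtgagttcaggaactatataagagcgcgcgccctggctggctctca
Tap1, chr17:34187306-34187555, plus strand: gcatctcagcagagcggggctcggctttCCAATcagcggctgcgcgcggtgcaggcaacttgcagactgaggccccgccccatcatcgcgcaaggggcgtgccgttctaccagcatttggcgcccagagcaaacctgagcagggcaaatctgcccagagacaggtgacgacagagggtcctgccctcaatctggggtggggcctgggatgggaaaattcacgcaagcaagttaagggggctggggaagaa
Psmb8, chr17:34197945-34198194, plus strand: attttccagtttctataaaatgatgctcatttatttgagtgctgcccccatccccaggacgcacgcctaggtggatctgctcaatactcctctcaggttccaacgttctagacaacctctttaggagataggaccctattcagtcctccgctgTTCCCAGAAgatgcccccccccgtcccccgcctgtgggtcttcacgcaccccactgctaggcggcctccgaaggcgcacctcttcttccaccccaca

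The windows of H2-K1 and H2-D1, with 50 bases after the start included, were 88.3% identical over 239 aligned bases. Both held GGGATTCCC, at 110 bases before the start in H2-K1 and 170 in H2-D1, a run found in 0.353% of 32851 mouse promoter windows of the same length. Both also held TTTCACTTC, the reverse of GAANNGAAA, 20 bases further on (7.52% of promoters), and ATTGG on both strands (37.4% of promoters). B2m held GAAACTGAA at position -139 (8.56% of promoters) and ATTGG at -53. Psmb8 held TTCCCAGAA at -97 (8.3% of promoters). The starts of Tap1 and Psmb9 lay 226 bases apart, and the pair shared 1 ATTGG. The Tapbp window held ATTGG at -248 and -165, and the Psmb10 window held none of the motifs. The cAMP-type element TGACGTCA (1.79% of promoters) and the kappaB form GGGANTTCC (1.68%) were in no window of a member.

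Transcripts of the pathway differed widely in level and in how much they varied from mouse to mouse. Per kilobase of exon, the median over 160 libraries was 335 CPM for B2m, 180 for H2-D1, 170 for H2-K1, 58.7 for Tapbp, 27.9 for Psmb10, 6.5 for Tap1, 5.56 for Tap2, 5.32 for Psmb8, 3.87 for Psmb9 and 2.64 for Nlrc5. The abundant end of this order thus held the presenting complex itself, and the regulator was the scarcest transcript. In CPM, H2-K1 ran from 299.9 to 970.9 over all libraries and H2-D1 from 320.9 to 1042, a ratio of highest to lowest of 3.24 and 3.25. Tapbp and Tap2 spanned ratios of 3.27 and 3.5, B2m 5.69, Psmb10 6.35, Psmb8 10.8, Psmb9 12.2 and Tap1 14.6. Nlrc5 ran from 3.369 to 167.0 CPM, a ratio of 49.6. No library lacked a member, the lowest count being 46 reads of Nlrc5.

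**Figure D1:**
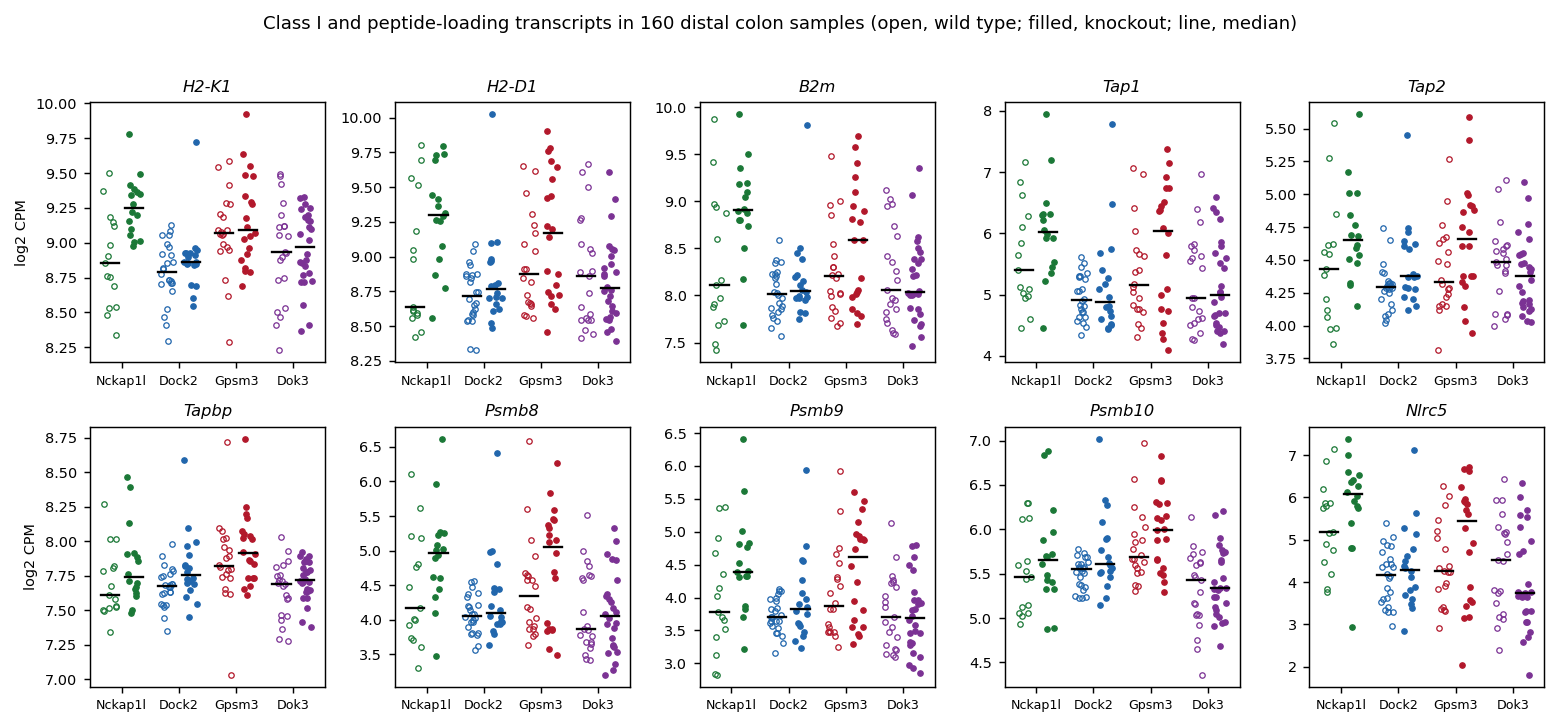
Level of each of the 10 genes in every library, in CPM on a log axis, by line and genotype, with the median of each group as a bar. Knockout and wild-type mice overlapped for each gene in each line, and Nlrc5 had the widest spread, from 3.369 to 167.0 CPM.

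Knockout mice were compared with wild-type littermates in each line, with a term for sex where a line held both sexes. None of the 10 genes passed an adjusted p of 0.05 in any line by edgeR's quasi-likelihood test, where 0.00% of 17947 genes passed in the Nckap1l line, 0.0340% of 17648 in Dock2, 0.00569% of 17560 in Gpsm3 and 0.00% of 17612 in Dok3. By limma-voom and DESeq2, too, 0 members passed in each line. At an unadjusted p under 0.05, 1 member in the Nckap1l line, 6 in Dock2, 2 in Gpsm3 and 0 in Dok3 differed, all with the higher level in the knockout. Such a p was found for 4.50%, 5.10%, 4.86% and 2.19% of all genes, and together with that direction for 2.15%, 2.35%, 3.35% and 1.06%. All 10 fitted folds were above 1 in the Nckap1l, Dock2 and Gpsm3 lines (53.3%, 48.2% and 51.4% of all genes), and 3 of 10 were in the Dok3 line (50.0% of all genes). The median log2 fold change of the 10 genes was 0.35 in Nckap1l, 0.25 in Dock2, 0.29 in Gpsm3 and -0.071 in Dok3, beside 0.00825, -0.00284, 0.00318 and -0.0001 for all genes tested. The 10 genes move together from mouse to mouse, as given further on, so 10 folds of one sign are not 10 separate observations.

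**Figure D2:**
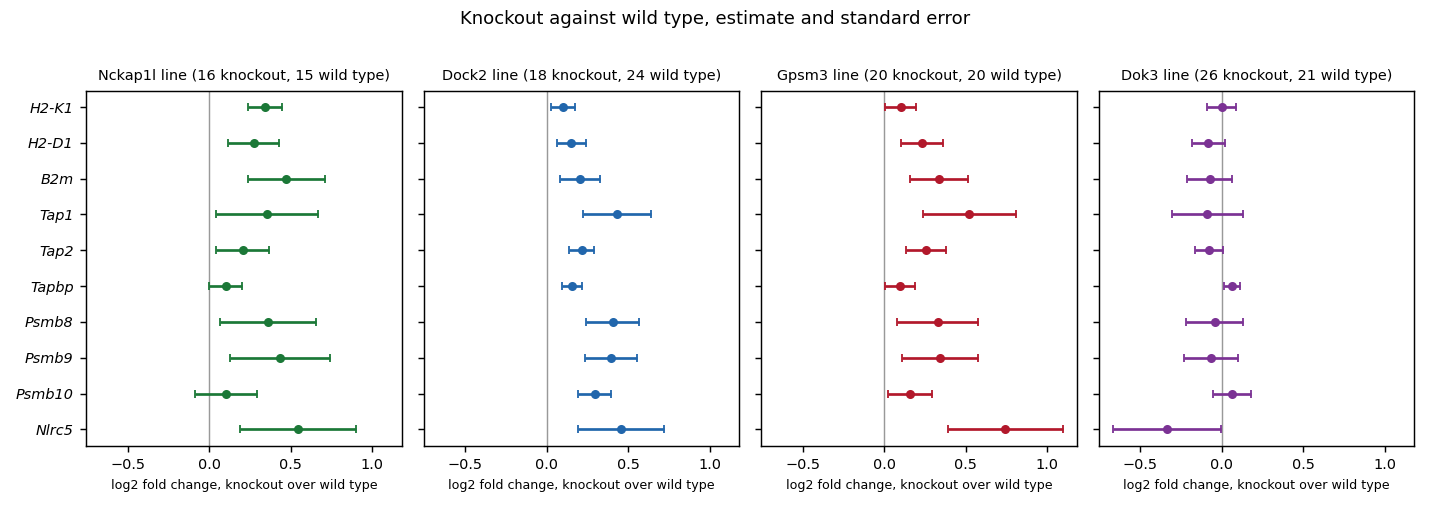
Fitted log2 fold change of knockout over wild type for each gene in each line, with bars of 1 standard error. The points lie above 0 for all 10 members in 3 of the lines and around 0 in the Dok3 line, and no gene passed the adjusted threshold.

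Leaving out a single knockout library of high values lowered the median in each line. In the library of Dock2-/- mouse 3 all 10 genes were at their highest among the knockouts, and without it the median log2 fold change in the Dock2 line fell from 0.25 to 0.12 and the members at an unadjusted p under 0.05 fell from 6 to 3. Nckap1l-/- mouse 14 had the highest value of 9 genes in its group, and leaving it out gave 0.23. Gpsm3-/- mouse 10 had the highest value of 6, and leaving it out gave 0.205, with 0 members in place of 2 at an unadjusted p under 0.05. That count was also 0 without the Gpsm3 wild-type library of lowest total count, with the neutrophil covariate, with 2 surrogate variables and by voom. In the other 3 lines the neutrophil covariate did not lower it. By edgeR it went from 1 to 7 in Nckap1l and from 6 to 8 in Dock2, and stayed at 0 in Dok3. Of all genes, 1212 of 17947 in Nckap1l and 1270 of 17648 in Dock2 had such a p in that fit, and no member passed after adjustment. In the Dok3 line knockout 17, the highest for 6 genes, also held the most Dok3 (40.3 CPM), and without it the median was -0.12. These omissions were chosen after the values had been seen. In each line the library left out for its high values was a knockout, so a lower median was built into the choice. The highest wild-type libraries, such as Nckap1l wild type 10 (highest for 8 genes) and Gpsm3 wild type 7 (highest for 9), were not left out. Without the 3 libraries whose Gpsm3 went against their label the median in the Gpsm3 line was 0.31, and without the 5 libraries against their labelled sex it was -0.094 in Dok3.

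The labelled sample numbers fell into separate runs within 3 of the lines, which no source names as batches. Within the 3 runs of the Nckap1l line the median log2 fold change of the members was 0.56 (6 knockout and 8 wild-type mice), -0.094 (5 and 4) and 0.72 (5 and 3). It was 0.093 and 0.51 in the 2 runs of the Gpsm3 line, with 10 and 10 mice each, and -0.025 and -0.066 in those of the Dok3 line. The Dock2 mice formed 1 run, in which the median was 0.39 in males and 0.13 in females. The size of the difference, and in the second run of the Nckap1l line its direction, thus changed from one run to the next.

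H2-K1, the classical heavy chain at the K locus, had the smallest unadjusted p of the pathway. Its lowest, median and highest level was 503.8, 609.0 and 881.7 CPM in Nckap1l-/- mice and 323.8, 463.4 and 723.3 CPM in wild-type mice. All 16 knockouts lay above the wild-type median, although the ranges overlapped. In this line H2-K1 also fell as skin markers rose, as given further on. The log2 fold change was 0.34 ± 0.11 (SE, n = 16 and 15), with an adjusted p of 0.83 by edgeR. In the Dock2 line H2-K1 was at 373.8, 464.9 and 845.5 CPM in knockouts and 314.2, 443.5 and 559.9 CPM in wild types. In the Gpsm3 line the same levels were 412.6, 545.7 and 970.9 CPM against 313.2, 537.6 and 768.2 CPM. The medians in these lines lay close together, with log2 fold changes of 0.10 ± 0.072 and 0.10 ± 0.098. In the Dok3 line they were 501.5 and 489.8 CPM, and the log2 fold change was 0.001 ± 0.089.

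H2-D1, the heavy chain at the D locus, had its largest gap of medians in the same line. It stood at 376.5, 631.7 and 891.0 CPM in Nckap1l-/- and 342.7, 397.7 and 891.5 CPM in wild-type mice (lowest, median and highest), with 15 of 16 knockouts above the wild-type median. The highest wild-type and highest knockout mouse were nearly level, and the log2 fold change was 0.27 ± 0.16. The medians of H2-D1 were 434.6 against 421.1 CPM in Dock2, 575.5 against 469.8 in Gpsm3 and 436.7 against 465.1 in Dok3. B2m, the light chain shared by all class I molecules, had 205.7, 480.4 and 972.6 CPM in Nckap1l-/- and 170.9, 276.1 and 935.6 CPM in wild-type mice. Its log2 fold change of 0.47 ± 0.24 was the largest in the Nckap1l line after that of Nlrc5. In Gpsm3-/- mice B2m was at a median of 385.0 CPM against 295.0 CPM, and in the Dock2 and Dok3 lines the medians of the genotypes were 264.3 against 258.4 and 262.4 against 267.2 CPM.

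The Nckap1l comparison was the only one of the 4 lines in which another fit called members. With 2 surrogate variables added, H2-K1 (0.40), H2-D1 (0.39) and B2m (0.75) passed the adjusted threshold on the log2 scale, in a fit that called 0.557% of all genes. The 3 genes are the subunits of the presenting complex, and the 7 genes of peptide supply and regulation stayed above the threshold. All 10 folds were above 1 in that fit, with a median of 0.526 on the log2 scale. The largest, 0.946, belonged to a gene among the 7. By edgeR 8 members had an unadjusted p under 0.05 there, as did 2165 of all 17947 genes. The threshold thus did not set the 3 genes apart by the size of their folds.

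The transporter subunits differed from each other in spread. Tap1 was at 21.85, 65.04 and 246.9 CPM in Nckap1l-/- and 21.8, 42.03 and 144.2 CPM in wild-type mice, and at 16.95, 66.05 and 166.6 CPM in Gpsm3-/- and 19.6, 35.44 and 133.6 CPM in wild-type mice. Knockout medians were thus higher in these lines, but the lowest mice of both genotypes were alike. In the Dock2 line the medians of Tap1 were 29.46 CPM in knockouts and 29.98 CPM in wild types while the log2 fold change was 0.43 ± 0.21, and 4 of 18 knockouts, up to 221.0 CPM, exceeded the highest wild-type mouse at 48.9 CPM. Tap2 varied less: 15.25, 25.17 and 47.87 CPM in Gpsm3-/- against 13.92, 20.02 and 38.38 CPM, a log2 fold change of 0.25 ± 0.12 with an unadjusted p of 0.0446. In the Dock2 line it was 0.21 ± 0.077 (unadjusted p = 0.00789, edgeR adjusted p = 0.655). Tapbp had log2 fold changes of 0.10 ± 0.10 in Nckap1l, 0.098 ± 0.091 in Gpsm3 and 0.16 ± 0.062 in Dock2, among the lowest of the pathway in each.

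Among the immunoproteasome subunits, Psmb8 and Psmb9 had similar fitted folds, and Psmb10 a smaller one in the Nckap1l, Dock2 and Gpsm3 lines. Psmb8 was at 11.06, 33.1 and 77.25 CPM in Gpsm3-/- mice against 12.34, 20.25 and 96.33 CPM in wild types, and Psmb9 at 9.721, 24.42 and 48.27 CPM against 9.372, 14.55 and 60.83 CPM. For both, 13 of 20 knockouts lay above the wild-type median and none above the highest wild type. In the Nckap1l line the medians were 31.19 against 17.98 CPM for Psmb8 and 20.84 against 13.67 CPM for Psmb9. In Dock2 the log2 fold changes were 0.41 ± 0.16 for Psmb8, 0.40 ± 0.16 for Psmb9 and 0.29 ± 0.10 for Psmb10, the last with the smallest p of the pathway in that line (unadjusted 0.00572, edgeR adjusted 0.579). Psmb10 there ran from 35.27 through 48.61 to 129.5 CPM in knockouts and from 37.38 through 46.65 to 54.72 CPM in wild types. Its spread in the knockouts reached both below and above the wild-type range, with 2 mice below it and 6 above. In Dok3 the medians were 16.55 against 14.53 CPM (Psmb8), 12.76 against 12.9 (Psmb9) and 40.29 against 43.05 (Psmb10).

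Each immunoproteasome subunit takes the place of a constitutive one: Psmb8 that of Psmb5, Psmb9 that of Psmb6 and Psmb10 that of Psmb7. The ratio of each pair was compared between genotypes by a two-sided permutation test, and 0 of 12 tests passed after adjustment over the 12. The mean log2 ratio of Psmb9 to Psmb6 was -1.86 ± 0.61 (SD, n = 18) in Dock2-/- and -2.13 ± 0.26 (SD, n = 24) in wild-type mice, a difference of 0.27 (permutation p = 0.0521, adjusted p = 0.272). The lowest raw permutation p, 0.0295 (adjusted 0.272), came from Psmb10 to Psmb7 in the same line, with a difference of 0.22. Over single mice of both genotypes the Psmb8 to Psmb5 ratio ran from 0.489 to 5.44 in the Nckap1l line and from 0.553 to 5.39 in the Gpsm3 line. The SD of its log2 was 0.674 in Nckap1l-/- and 0.773 in wild-type mice, beside a difference of 0.425 between them. In the Gpsm3 line the SDs were 0.824 and 0.704, beside a difference of 0.286. In Dock2 wild types the SD of Psmb9 to Psmb6, 0.261, was about as large as the difference of 0.271.

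Nlrc5 had the largest fitted fold of the pathway in the Nckap1l, Dock2 and Gpsm3 lines and the most negative in Dok3. In the Gpsm3 line it was at 3.965, 43.6 and 106.0 CPM in knockouts and 7.475, 18.92 and 76.65 CPM in wild types. Of 20 knockouts 13 lay above the wild-type median, 3 above the highest wild type and 1 below the lowest. The log2 fold change was 0.74 ± 0.35 (unadjusted p = 0.0414, edgeR adjusted p = 0.936). With the neutrophil list as a covariate it was 0.33 ± 0.28 (unadjusted p = 0.237), with 2 surrogate variables 0.265 ± 0.27 (unadjusted p = 0.333), and in the 2 runs of sample numbers 0.22 ± 0.52 and 1.29 ± 0.44. In the Nckap1l line Nlrc5 was at 7.494, 67.7 and 167.0 CPM against 13.5, 36.23 and 141.8 CPM, and in the Dock2 line at 7.042, 19.42 and 139.9 CPM against 7.718, 17.85 and 41.84 CPM. In the Dok3 line it was at 3.369, 13.17 and 81.05 CPM in knockouts and 5.11, 22.87 and 87.15 CPM in wild types, with 9 of 26 knockouts above the wild-type median and a log2 fold change of -0.33 ± 0.33.

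Whether the knockout effect differed between lines was tested on the effect itself. In a fit over all 4 lines 0 of 10 members passed, where 0.539% of 19849 genes did. Set against the Dok3 line, the effect of Gpsm3 knockout on Nlrc5 was larger by 1.07 ± 0.45 on the log2 scale (unadjusted p = 0.0186, edgeR adjusted p = 0.639) and that on Tap2 by 0.33 (unadjusted p = 0.028). These were the only 2 members at an unadjusted p under 0.05 in that contrast, where 7.46% of genes had such a p and 0.247% passed the adjusted threshold. In the contrasts of Gpsm3 with Nckap1l (0.620% of genes called) and with Dock2 (0.272%) 0 members passed. No member passed for sex either, where 0.255% of genes did in the Nckap1l line and 9.60% in Dock2, nor for a difference of the knockout effect between the sexes (0.00% and 0.321% of genes). The lowest unadjusted p for sex was 0.0394 for Psmb10 in Nckap1l (females lower by -0.43 on the log2 scale) and 0.0429 for Tap1 in Dock2 (-0.44), where 15.3% and 25.3% of genes had an unadjusted p under 0.05.

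The Gpsm3 locus lies between Tap2 and H2-D1, 373.5 to 671.0 kb from the 7 members on its chromosome, so the genes around it were looked at by themselves. Of 122 tested genes within 1 Mb of Gpsm3, 12 (9.84%) had an unadjusted p under 0.05 between Gpsm3-/- and wild-type mice, against 4.82% of all other genes tested, and 0 passed after adjustment. Their median log2 fold change was 0.00749. Tap2 was the member among the 12. Others were the heavy chains H2-Q4, H2-Q5, H2-Q6 and H2-Q7, H2-Eb1, Tnf, Myo1f and Gm15821, which overlaps Tap2. All of these were higher in the knockout. H2-Q4 and H2-Q7 followed B2m from mouse to mouse (r = 0.876 and 0.867), so the 12 are not all separate observations. The smallest p belonged to Pbx2 (-0.21, unadjusted p = 0.000804), which overlaps the 3' end of Gpsm3 by 489 bases, then to Btnl7-ps (-1.15, unadjusted p = 0.00187) and Daxx (0.19, unadjusted p = 0.00236). The ratio of mean CPM, knockout over wild type, ran from 1.07 (Tapbp) to 1.435 (Tap1) among the 7 members beside Gpsm3. For the members on other chromosomes it was 1.674 for Nlrc5, 1.262 for B2m and 1.115 for Psmb10. Whether the DNA around Gpsm3 differed between the genotypes was not tested.

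**Figure D3:**
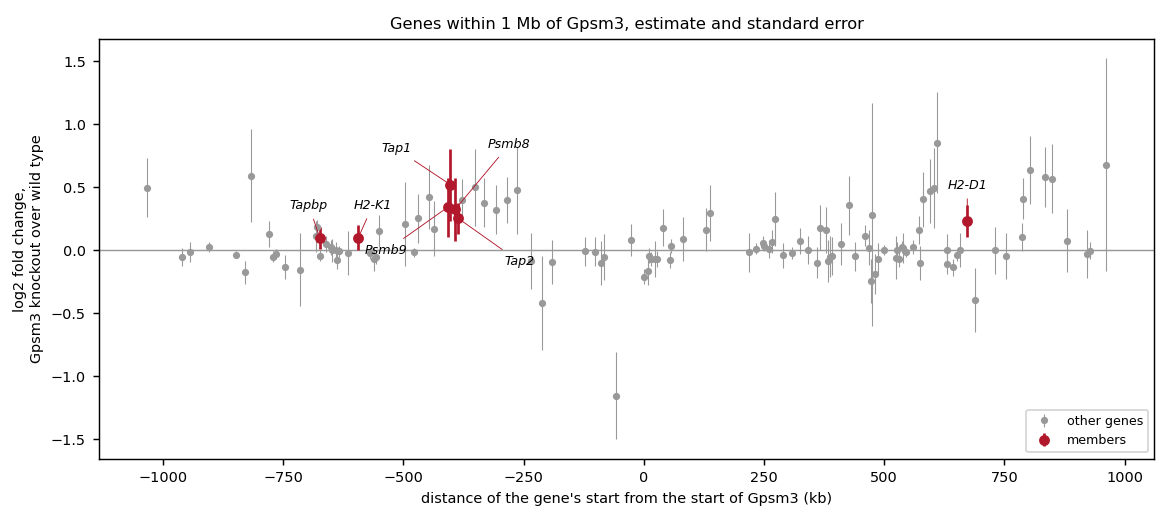
Log2 fold change of Gpsm3-/- over wild-type mice against distance from the start of Gpsm3, in kb, for the genes tested within 1 Mb, with members of the class I pathway in red and bars of 1 standard error. The members beside Gpsm3 all lie above 0, among neighbours whose median was 0.00749.

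Wild-type mice of the 4 lines differed in the pathway without any knockout. Of 60 tests (10 genes in 6 pairs of lines, adjusted for sex, the pairs sharing mice) 7 passed by edgeR, or 11.7%, beside 15.4% of all 114360 gene tests. Wild types of the Nckap1l line were higher than those of the Dock2 line in Nlrc5 (1.42 ± 0.30 on the log2 scale, adjusted p = 0.00395), Tap1 (0.86 ± 0.23, adjusted p = 0.0128), Psmb8 (0.59 ± 0.21, adjusted p = 0.0472) and B2m (0.49 ± 0.17, adjusted p = 0.0397), in a contrast that called 15.4% of genes. Nlrc5 was also higher in the Nckap1l than in the Gpsm3 line (1.03 ± 0.36, adjusted p = 0.0298, with 24.1% of genes called). Its wild-type median was 36.23 CPM in Nckap1l, 22.87 in Dok3, 18.92 in Gpsm3 and 17.85 in Dock2, and the last 3 did not differ from each other by the test. Psmb10 (0.49 ± 0.12, adjusted p = 0.00149) and Tapbp (0.22 ± 0.072, adjusted p = 0.0183) were higher in Gpsm3 than in Dok3 wild types, with 30.4% of genes called. No member passed between Nckap1l and Dok3 (11.5% of genes called), Dock2 and Gpsm3 (0.121%) or Dock2 and Dok3 (10.6%). Line, strain, DSS strength, day and sample number change together here and cannot be told apart, and all 5 differences that involve the Nckap1l line were lost with males alone and with the neutrophil list as a covariate. The remaining 2, Tapbp and Psmb10 between Gpsm3 and Dok3, passed in both of these fits but not among mice of the 1 series of sample numbers that both lines share, where Tapbp was at 0.14 ± 0.087 (adjusted p = 0.293) and Psmb10 at 0.29 ± 0.14 (adjusted p = 0.191, edgeR). Over 6 alternative fits the edgeR or voom adjusted p of Nlrc5 between Nckap1l and Dock2 ran from 0.00381 to 0.437, with 4 below 0.05, over 7 that of Psmb10 between Gpsm3 and Dok3 from 0.000182 to 0.191, with 6 below 0.05, and over 7 that of Tapbp from 0.0166 to 0.293, with 5 below 0.05.

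Across mice the pathway moved together. With the mean of each line, genotype and sex removed, the 45 pairs of members had a median Pearson r of 0.76 over 160 libraries, from 0.165 to 0.949, and 17 pairs were above 0.8. The libraries share depth and tissue makeup, so these values describe covariation and carry no p. The closest pairs were Psmb8 and Psmb9 (0.95), Tap1 and Psmb9, which start 226 bases apart (0.94), and H2-D1 and B2m (0.93). Among 16591 genes, those that followed the mean of the members most closely included Gbp3 (0.93) and Gbp2 (0.91), guanylate-binding proteins, Ifi47 (0.92), an interferon-inducible GTPase, and Gm12250 (0.91). Psmb10 was closest to Erap1, the aminopeptidase that trims peptides in the endoplasmic reticulum (0.89).

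**Figure D4:**
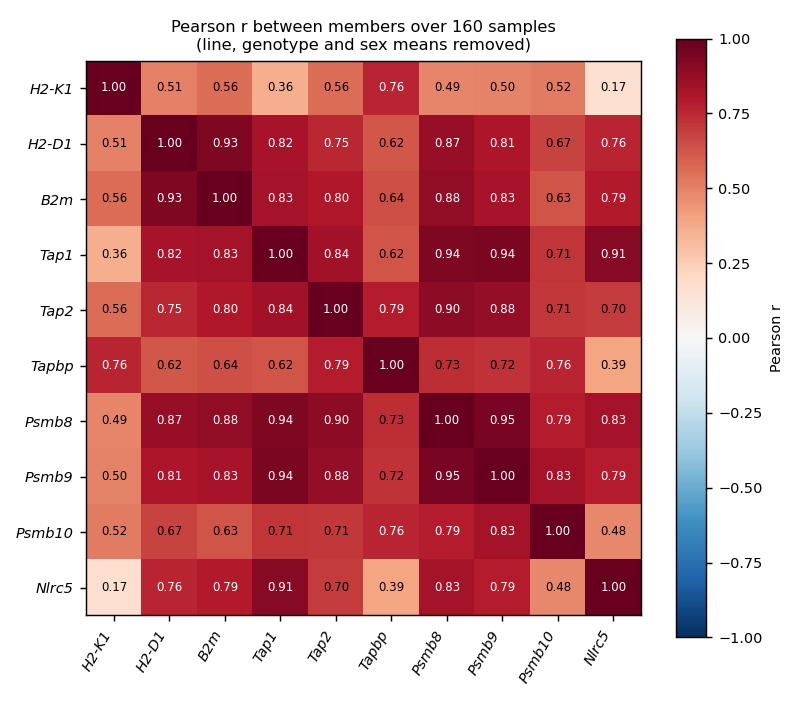
Pearson r between each pair of the 10 genes over 160 libraries after removal of the line, genotype and sex means. Tap1, Psmb8 and Psmb9 form the closest block, up to 0.95, and the lowest value, 0.165, is that of H2-K1 with Nlrc5.

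The heavy chains, alike in promoter sequence, differed in how they followed Nlrc5. The r of Nlrc5 with H2-D1 was 0.80 in the Nckap1l line (n = 31), 0.76 in Dock2 (n = 42), 0.88 in Gpsm3 (n = 40) and 0.64 in Dok3 (n = 47). With H2-K1 it was 0.50, 0.19, 0.46 and -0.27, and Spearman's rho 0.46, -0.10, 0.46 and -0.29. H2-D1 thus lay above H2-K1 in each line by this measure. The genes closest to H2-K1 were H2-T23, a nonclassical heavy chain (0.80), Tapbp (0.76) and Ogfr (0.67). Those closest to H2-D1 were B2m (0.93), Ly6a (0.88) and Psmb8 (0.87).

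**Figure D5:**
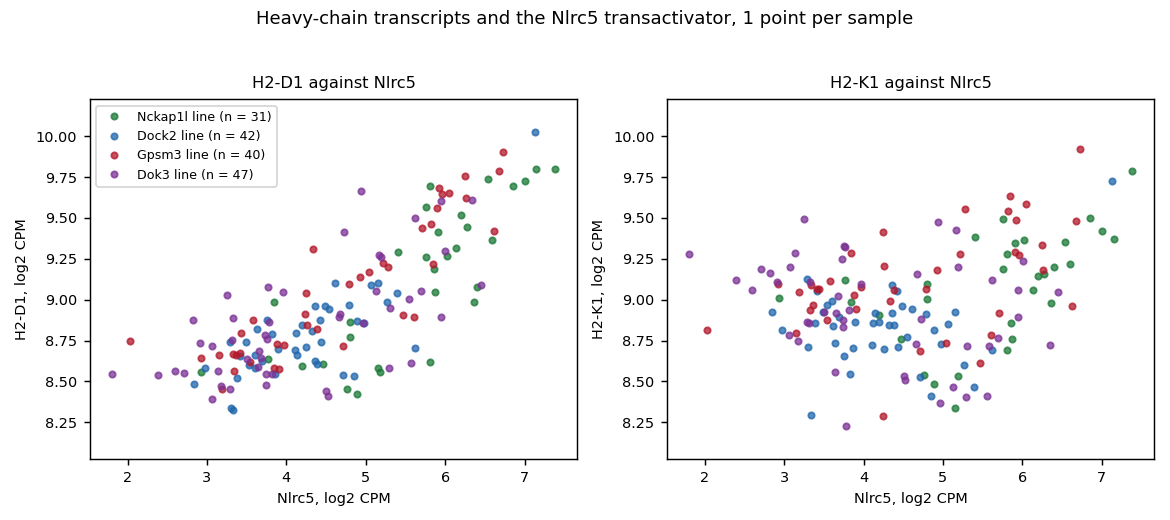
Level of H2-K1 and of H2-D1 against that of Nlrc5 in every library, as log2 CPM, coloured by line. H2-D1 rises with Nlrc5 in each line (r from 0.64 to 0.88), while H2-K1 has r from -0.27 to 0.50.

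The mean of the other 9 members followed Nlrc5 in each line, with Pearson r of 0.79 in Nckap1l, 0.77 in Dock2, 0.87 in Gpsm3 and 0.77 in Dok3 and Spearman's rho of 0.76, 0.69, 0.89 and 0.73. Each permutation p was 1e-05, the smallest that 100000 permutations can give, and 2e-05 after adjustment over 8 relations. Permutation sets these values against no relation at all between mice. Genes that share depth and tissue makeup can pass it for that reason alone, so the p does not show a link particular to Nlrc5. Without the 2 mice farthest from the median, r was 0.73, 0.67, 0.86 and 0.73. Within runs of sample numbers it was 0.84, 0.97 and 0.88 in Nckap1l, 0.88 and 0.89 in Gpsm3 and 0.77 and 0.77 in Dok3. The relation was thus present in every run that could be looked at. Genes that are no members also followed the pathway, such as Gbp3 with r = 0.925 to the mean of the members over 160 libraries. Whether Nlrc5 followed the other members more closely than genes at large did was not tested.

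The members also moved with markers of infiltrating cells. Their mean level had an r of 0.63 (permutation p = 0.0002) with a list of 8 neutrophil and acute inflammation genes in the Nckap1l line, 0.36 (p = 0.0202 by permutation) in Dock2, 0.51 (permutation p = 0.00077) in Gpsm3 and 0.66 (permutation p = 2e-05) in Dok3, with rho of 0.68, 0.32, 0.59 and 0.64. The permutation p has the same limit here as for Nlrc5, since shared depth and tissue makeup alone can give a low value. Leaving out the 2 farthest mice gave r of 0.54, 0.35, 0.62 and 0.58. Within runs the values were 0.68, 0.79 and 0.48 in Nckap1l, 0.52 and 0.54 in Gpsm3 and 0.75 and 0.52 in Dok3. Over all 160 libraries the mean of the members had r = 0.70 with T cell markers and 0.60 with macrophage markers. H2-K1 stood apart in these pooled values: its r was 0.29 with T cell, -0.035 with macrophage and 0.41 with epithelial markers, where H2-D1 had 0.72, 0.72 and -0.069. The lines differed in this. In the same order H2-K1 had 0.592, 0.478 and 0.193 in Nckap1l and 0.456, -0.00243 and 0.332 in Dock2. It had 0.335, 0.0796 and 0.452 in Gpsm3 and -0.0361, -0.365 and 0.538 in Dok3. Among the marker lists H2-K1 had its largest pooled r, in size, with 5 skin markers (-0.46, where H2-D1 had -0.0686). By line that r was -0.554 in Nckap1l, -0.283 in Dock2, -0.431 in Gpsm3 and -0.532 in Dok3. With striated muscle markers the pooled r of H2-K1 was -0.412. The skin markers summed to a median of 9.327 CPM in Nckap1l-/- and 783.2 CPM in wild-type mice. The summed level of the 8 neutrophil genes ran from 4.634 to 1094 CPM in Nckap1l-/- and from 4.132 to 2447 CPM in wild-type mice, and no marker was at 0 in every library. With the neutrophil list as a covariate the median log2 fold change of the members was 0.48, 0.26, 0.16 and -0.047 in Nckap1l, Dock2, Gpsm3 and Dok3. With the skin list as a covariate, a fit added after the values had been seen, it was 0.383, 0.230, 0.306 and -0.065 in the same order.

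Other genes of the pathway, from lists that share no gene with the 10, were tested in the same fits and 0 passed after adjustment in any knockout comparison. By edgeR an unadjusted p under 0.05 was found for 4.50%, 5.10%, 4.86% and 2.19% of all genes in Nckap1l, Dock2, Gpsm3 and Dok3. Together with a higher level in the knockout it was found for 2.15%, 2.35%, 3.35% and 1.06%. Of 9 CD8 T cell and NK cell genes that read class I or kill on it, 3 were abundant enough to be tested, and 0 had an unadjusted p under 0.05. Of the other class I heavy chains, 4 of 13 tested in Nckap1l, 1 of 13 in Dock2 and 6 of 13 in Gpsm3 had an unadjusted p under 0.05 with the higher level in the knockout, and 1 of 14 in Dok3 with the lower, with list medians of 0.19, 0.12, 0.18 and 0.034 on the log2 scale. Examples were H2-T22 in Nckap1l (0.32 ± 0.11, unadjusted p = 0.00751), H2-T24 in Gpsm3 (0.30 ± 0.11, unadjusted p = 0.0127) and H2-Q7 in Dok3 (-0.49 ± 0.23, unadjusted p = 0.0413). In Gpsm3 the 6 included H2-Q4, H2-Q6 and H2-Q7, already counted among the genes beside Gpsm3. H2-Q4 and H2-Q7 followed B2m across mice (r = 0.876 and 0.867), so these heavy chains are not separate observations. Of 11 regulators of class I transcription 1 in Dock2 and 3 in Gpsm3 had an unadjusted p under 0.05, led by Irf1, an interferon-induced transcription factor (0.34 ± 0.11 in Dock2 and 0.41 ± 0.17 in Gpsm3). Among 8 tested genes for interferon gamma and its signalling 3 did in Gpsm3 and 2 in Dock2, 1 of them lower in the knockout. In Gpsm3 Socs1, a feedback inhibitor of interferon signalling, stood at 0.90 ± 0.33 (unadjusted p = 0.00841). Of the 10 genes for peptide loading and folding 1 had such a p, Erap1 in Dock2 (0.13 ± 0.050), and of the 7 proteasome activator and constitutive subunit genes 1 did, Psme2 in Dock2 (0.20 ± 0.083).

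Some cell type markers also had a low unadjusted p by edgeR, as did 4.50%, 5.10% and 4.86% of all genes (under 0.05) in Nckap1l, Dock2 and Gpsm3. After adjustment 0 of 17947 genes were called for Nckap1l knockout, so no marker was. For Gpsm3 knockout the 1 gene called was Gpsm3 itself, again no marker. For Dock2 knockout 6 of 17648 genes were called, which are not named here. All 5 B cell markers had an unadjusted p under 0.05 with lower levels in Nckap1l-/- (median log2 fold change -2.6) and in Dock2-/- mice (-0.86). The summed B cell markers ran from 0.78 to 59.26 CPM in Nckap1l-/- and from 1.389 to 242.9 CPM in wild-type mice. In Nckap1l-/- mice 4 of 5 smooth muscle markers were also lower at such a p (median log2 fold change -0.42), and the mean of the members had r = -0.599 with that list over the 31 mice of the line. Of 4 dendritic cell markers 2 were higher at such a p in Gpsm3-/- (list median 0.38) and 2 in Dock2-/- mice (0.13). In the Gpsm3 line all 6 T cell markers and all 3 pan-leukocyte markers had folds above 1, of which Ptprc, the common leukocyte antigen CD45, had an unadjusted p of 0.042 (0.505 on the log2 scale). The mean log2 CPM of the skin markers, which belong to no layer of the colon, had a median of 0.71 in Nckap1l-/- and 6.61 in wild-type mice, while their fitted folds were above 1. The part of cell makeup in the values of the class I genes was not tested beyond the covariate fits given above.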

How the data were processed

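The authors made stranded, ribosome-depleted libraries of distal colon, sequenced them as single reads of 100 bases, and aligned and counted them with STAR and featureCounts (Subread) against mm10, in versions not given in the sources used here. The deposited values are raw counts per Ensembl gene, 39179 in each of 160 files. Symbols came from GENCODE vM21, which held 96.2% of the genes and 99.67% of the counts. CPM were computed with TMM factors over all libraries, and log2 CPM with a prior count of 2. Knockout and wild-type mice were compared per line with edgeR 4.0.16 (quasi-likelihood test, filterByExpr, Benjamini-Hochberg adjusted p of 0.05) in R 4.3.3, with a term for sex where a line held both. Wild types were compared across lines, and knockout effects between lines, in joint fits. DESeq2 1.42.0, limma 3.58.1 (voom) and sva 3.50.0 gave alternatives. Correlations were taken within lines on residuals, with 100000 permutations. The fits were also run on simulated counts. The outcome is not given here, so how often changes of the members' size would be called is not stated. The smallest difference between 2 libraries of the same group was 4.01 chi-square units per gene, so none was a duplicate of another in its group. Pairs of libraries from different groups are not covered by this value. p-values cover the spread between mice. Promoter sequences were RefSeq's, searched for the listed letters on both strands. The members, lists and tests were chosen with earlier results of these data known. Named genes from other lists were those with the smallest p per list, besides calls, and 1 gene that the rule named is not reported here. Samples of an Aif1 line were not analysed here.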

Additional observations from a re-analysis of the deposited data

Results flagged for a closer look

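In subgroups of 4 to 10 mice of one line and genotype (split by sample number, or by sex in the Dock2 line), 14 of 130 tests found the highest or lowest library far from the others, and 9 of the 14 were high values. Chance gives about 1 in 20 for separate tests. The 10 members move together within a library, and the 14 came from 6 libraries. These tests are thus not separate, and 14 of 130 cannot be weighed against that rate. In the library of Dock2-/- mouse 3, 6 members stood above the other 9 male knockouts. H2-K1 was at 845 CPM with the next mouse at 487 CPM, H2-D1 at 1042 CPM with the next at 550 CPM, and B2m at 897 CPM with the next at 364 CPM. Tap2 stood there at 43.5 CPM, Tapbp at 385 CPM and Psmb8 at 84.9 CPM. Tapbp alone stood out in Gpsm3-/- mouse 10 (428 CPM) and in Gpsm3 wild-type mouse 7 (421 CPM). Gpsm3 wild-type mouse 14, the library with the most counts (19993833), was low in H2-K1 (313 CPM) and Tapbp (131 CPM). Nckap1l-/- mouse 10 was low in H2-K1 (517 CPM), B2m (206 CPM) and Nlrc5 (7.49 CPM) in a subgroup of 5. H2-K1 was high, at 723 CPM, in Nckap1l wild-type mouse 8. In the joint test over the 4 lines and in the contrasts of Gpsm3 with each other line, the knockout effect differed for 0 members after adjustment, and the other pairs of lines were not tested.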

How the results depend on the processing

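No paired analysis was possible because every mouse has its own sample number and no number is shared between genotypes. The fitted folds of the 10 members kept their direction in 119 of 120 alternative values in Dock2, 132 of 140 in Dok3, 140 of 140 in Gpsm3 and 153 of 160 in Nckap1l. Members called stayed at 0 in the knockout comparisons, except for 3 with 2 surrogate variables in Nckap1l. The 7 differences between wild types became 2 in males alone and 4 with the neutrophil list as a covariate, which lost the 5 of the Nckap1l line and added Psmb8 and Psmb9 between Gpsm3 and Dok3. The 2 differences between Gpsm3 and Dok3 were lost within the series of sample numbers that both lines share, and Tapbp also with the skin covariate. Directions turned in the Dok3 line for H2-K1 with surrogate variables (-0.054), with the neutrophil covariate (-0.018), with the skin covariate (-0.058), in the first run of sample numbers (-0.147) and without the libraries against their labelled sex (-0.01). In that first run Nlrc5 (0.001), Tap1 (0.11) and Tapbp (-0.005) turned too. In Dock2 females H2-K1 was at -0.012. In the second run of the Nckap1l line B2m (-0.143), H2-D1 (-0.093), Nlrc5 (-0.325), Psmb8 (-0.157), Tap1 (-0.094), Tap2 (-0.129) and Tapbp (-0.02) turned. The cause was not tested. Over all genes, calls in Nckap1l went from 0 to 10 with DESeq2, 27 with no filter, 100 with surrogate variables, 1 with the neutrophil covariate, 2 in the first run and 26 in the third. In Dock2 they went from 6 to 45 (DESeq2), 0 (voom), 31 (no filter), 1 (at least 10 counts in every library), 92 (surrogate variables), 10 (neutrophil covariate), 1 (males), 0 (females) and 20 (skin covariate). In Gpsm3 they went from 1 to 2 (DESeq2), 32 (no filter), 0 (at least 10 counts), 0 in each run and 2 without the libraries against their Gpsm3 label. In Dok3 they went from 0 to 15 (no filter) and 17 (second run). Mice were too many per group for leaving out each in turn. No library of the Nckap1l, Dock2 or Gpsm3 line went against its labelled sex, so leaving such libraries out gave no value there. The lowest count of a member in any library was 46.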
